A study of Mus musculus with 4 samples.

Results

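Mitochondrial ribosomal proteins are the building blocks of the ribosome that works inside mitochondria. They are described here in helper T cells with and without Bfar, a gene for a membrane-anchored ubiquitin ligase. The genes were chosen by symbol: every gene whose name begins with Mrpl (large subunit) or Mrps (small subunit) followed by a number and that was listed in all 4 libraries. This gave 77 genes, 48 Mrpl and 29 Mrps, of the 14469 genes listed in all 4 libraries. The rule uses symbols and listing, not levels or fold changes, but the genes were chosen with earlier results of these data known. No gene with such a symbol was missing from a library. All 77 passed the filter on low counts.

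The cells were naive T cells, sorted by flow cytometry as CD4+CD44loCD62Lhi from spleen and lymph nodes of C57BL/6 mice aged 6 to 8 weeks. All cultures received anti-CD3 and anti-CD28 and Th9 conditions, which favour cells making interleukin 9, and lasted 3 days. The control group held 2 libraries from wild type mice, and the other held 2 from mice with the genotype label BFAR-/-, called knockout here. The growth protocol describes a deficiency conditional on T cells, without the Cre driver. Whether the libraries of a group were made from different animals is not stated. The tests below therefore compare the genotypes with the scatter of these libraries alone, which may be technical.

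Bfar itself was at 36.4 and 32.9 CPM (counts scaled to the total of the library) in the wild-type libraries and at 8.45 and 7.79 CPM in the knockout libraries (log2 fold change -2.09 ± 0.09, SE; edgeR adjusted p = 5.385e-10). The libraries held 19058009 to 19782923 expected counts each. The 9 T cell markers examined summed to 2654.55 to 2813.94 CPM. Summed markers of CD8 T cells, B cells, myeloid, natural killer and erythroid cells lay at most at 11.6 CPM in any library. The RNA was thus that of CD4 T cells, as labelled. In bulk RNA of this kind, fewer cells of a type and less RNA per cell cannot be told apart.

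The mitochondrial ribosome translates the few messenger RNAs encoded by mitochondrial DNA, all of them for inner-membrane subunits of the respiratory chain and the ATP synthase. Its ribosomal RNAs come from mitochondrial DNA, whereas its proteins are encoded in the nucleus, made in the cytosol and imported. Some of these proteins have bacterial counterparts and others are found only in mitochondria. Activated T cells expand their mitochondria, and mitochondrial translation is known to be needed for their effector functions.

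The genes were scattered over 17 chromosomes, with at most 10 on 1 of them (chromosome 11), so what they share was sought at their promoters. The RefSeq promoter table (GRCm38.p6) covered 68 of the 77 genes, 54 of them with a start within 50 bases of the start of the gene. Windows of 250 bases before to 50 bases after each start were searched on both strands for 4 motifs named after factors known to drive nuclear genes of mitochondrial function: NRF1 (GCGCATGCG), GABP and other ETS factors (CCGGAAG), YY1 (AAGATGGCG) and the E-box (CACGTG) bound by Myc and related factors. The stretches below are shown because they belong to the genes the results turn on: Mrpl12 fell with the smallest p, Mrpl52 had the highest level, Mrpl42 fell and carries a YY1 match, Mrpl9 was the gene that rose, and Mrpl46 and Mrps11 share a promoter. All run 5′ to 3′ on the strand of the gene, Mrpl46 and Mrps11 on that of Mrps11, and capitals mark motif matches. Mrpl12 lies at chr11:120484387-120484666 (plus strand), Mrpl52 at chr14:54426659-54426938 (plus), Mrpl42 at chr10:95501900-95501929 (minus), Mrpl9 at chr3:94443298-94443327 (plus) and the shared window at chr7:78783060-78783160.
Mrpl12: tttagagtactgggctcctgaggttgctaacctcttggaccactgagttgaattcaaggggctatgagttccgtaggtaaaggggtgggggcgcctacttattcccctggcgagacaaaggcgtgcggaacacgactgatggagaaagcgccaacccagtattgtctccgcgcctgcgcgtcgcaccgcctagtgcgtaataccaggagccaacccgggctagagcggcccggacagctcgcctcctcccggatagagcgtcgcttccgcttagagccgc
Mrpl52: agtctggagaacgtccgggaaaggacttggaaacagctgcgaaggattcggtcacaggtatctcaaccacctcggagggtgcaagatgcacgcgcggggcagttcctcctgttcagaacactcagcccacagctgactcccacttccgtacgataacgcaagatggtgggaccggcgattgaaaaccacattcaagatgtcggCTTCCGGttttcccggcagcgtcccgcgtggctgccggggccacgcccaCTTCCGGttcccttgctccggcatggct
Mrpl42: ttgaagcAAGATGGCGagcgcgcggtgagt
Mrpl9: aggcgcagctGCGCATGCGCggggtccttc
Mrpl46 and Mrps11: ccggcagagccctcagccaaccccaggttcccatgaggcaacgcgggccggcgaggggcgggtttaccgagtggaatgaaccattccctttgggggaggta

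The Mrpl12 stretch, 250 bases before and 30 after the start, held none of the 4 motifs. The Mrpl52 stretch of the same size held 2 GABP/ETS matches on the opposite strand, the first beginning 47 bases before the start and the second at base 3 of the transcript. In the short Mrpl42 stretch a YY1 match began at base 28 of the transcript. In Mrpl9 an NRF1 match began 28 bases before the start and, since the letters read nearly the same on both strands, an overlapping one began 27 bases before it. The start used for Mrpl9 lies 182 bases inside the RefSeq gene. The starts of Mrpl46 (large subunit) and Mrps11 (small subunit) face away from each other with 41 bases between them. The stretch printed for this pair held none of the 4 motifs. The full window searched for Mrps11 held a YY1 match outside that stretch.

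NRF1 matches were present in 7 of 68 promoters of mitochondrial ribosomal protein genes (10.29%), against 4.1% of the promoters of all 10125 tested genes with one in the table. GABP/ETS matches were present in 25 (36.76%, against 20.42%) and YY1 matches in 8 (11.76%, against 3.6%), whereas E-boxes were present in 5 (7.35%, against 11.84%). The median GC content of these windows was 58.0%, against 60.67% for all tested genes. Some lie in divergent pairs: by GENCODE gene starts, 23 of the 77 genes (29.87%) had a protein-coding gene on the opposite strand that started within 1000 bases upstream or overlapped the start by at most 300 bases, against 13.62% of 11967 tested genes with coordinates. With overlaps of up to 1000 bases counted too, a definition added after the data were seen, there were 33 (42.86%, against 16.75%). Mrpl46 and Mrps11, whose GENCODE models overlap by more than 300 bases, are among the 33 and not among the 23. A match is a description of letters, not evidence of binding. 

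Per transcript length, the genes spanned a 21.3-fold range of levels. The mean over the 4 libraries ran from 4.54 FPKM for Mrpl17 to 96.95 FPKM for Mrpl52, with a median of 29.8 FPKM, and was about equal for the large subunit (30.1 FPKM) and the small subunit (29.5 FPKM). In the large subunit the highest levels were those of Mrpl52, at 101.75, 103.43, 84.68 and 97.94 FPKM in wild type 1, wild type 2, knockout 1 and knockout 2, followed by Mrpl12 and Mrpl42. The lowest were those of Mrpl17, at 4.72, 4.72, 4.26 and 4.47 FPKM, Mrpl19 and Mrpl35. In the small subunit Mrps21 (mean 87.1 FPKM), Mrps6 (80.2 FPKM) and Mrps18b (62.0 FPKM) led, and Mrps25 (6.77 FPKM), Mrps31 (10.6 FPKM) and Mrps14 (11.5 FPKM) were lowest. The order of levels was nearly the same in every library, with Spearman's rho between 0.979 and 0.992 over the 77 genes for the 6 pairs of libraries. Ranges of neighbours near the top overlapped over the 4 libraries: Mrps21, next to Mrpl52 in order, ran from 79.9 to 92.8 FPKM. Mrpl12, next again, ran from 72.9 to 92.7 FPKM. Within each library, however, Mrpl52 was above Mrps21, and Mrps21 was above Mrpl12. The latter gap was small in wild type 2, at 92.76 against 92.71 FPKM. That of Mrpl52 over Mrps21 was small in knockout 1, at 84.68 against 84.24 FPKM. Genes with long annotated transcripts had the lower values (Spearman's rho -0.667 with transcript length over these genes, which share the length as divisor). Mrpl17 and Mrps25 were annotated with more than 6 kb each, with 6712 and 6076 bases. The exons of Mrps25 overlap those of Nr2c2 on the opposite strand, and 68.9% of its 31-base words also occur there, so its level is uncertain. Mrpl19, which overlaps Gcfc2, shares 37.9% of its words with other genes.

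**Figure D1:**
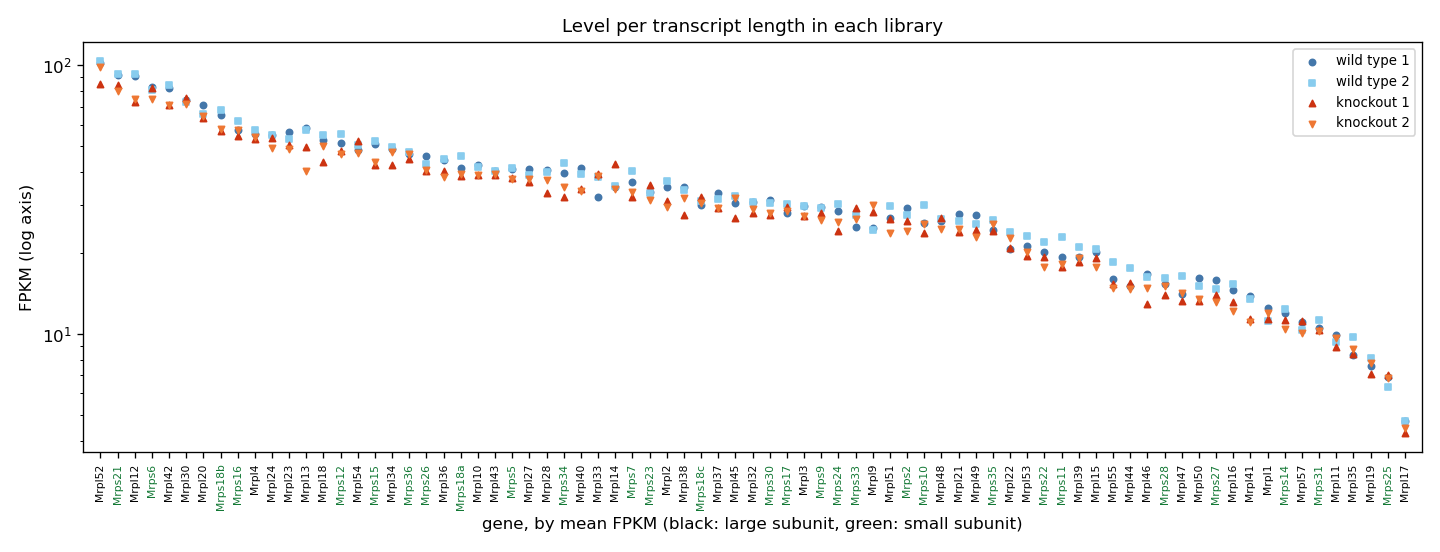
Level of each of the 77 genes in FPKM on a log axis, in order of the mean over libraries, with a point for each of the 4 libraries and green names for the small subunit. Levels run from 4.54 FPKM (Mrpl17) to 96.95 FPKM (Mrpl52), and the 4 points of a gene lie close together compared with the range between genes.

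In the knockout the genes were mostly a little lower. Of 77 genes, 17 fell and 1 rose (edgeR quasi-likelihood test, adjusted p below 0.05 over all 12677 tested genes). The share called was 23.4%, near the 26.8% called among all genes, of which 13.2% fell and 13.6% rose. In 68 of the 77 (88.3%) the fold change was below 0, against 50.4% of all tested genes. The median log2 fold change was -0.13 (quartiles -0.18 and -0.07), against -0.00 for all genes. At an unadjusted p below 0.05 there were 36 of 77, against 4784 of all 12677 tested genes. The falls were small: the 17 genes fell by between 10.1% and 21.8%.

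Summed over the 77 genes, the level was 2863.33 and 2910.55 CPM in wild type and 2645.95 and 2654.62 CPM in the knockout, a difference of -8.20%. Both knockout sums lay below both wild-type sums. The large subunit summed to 1810.27 and 1828.34 CPM in wild type against 1659.57 and 1680.33 CPM (-8.21%), and the small subunit to 1053.06 and 1082.21 CPM against 986.389 and 974.288 CPM (-8.18%). The ratio of large to small subunit sums was 1.72 and 1.69 in wild type and 1.68 and 1.72 in the knockout, so the groups overlapped and the difference was -0.00 on the log2 scale. With 2 libraries against 2, an exact two-sided permutation test of a sum cannot go below p = 0.33, and none is given.

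**Figure D2:**
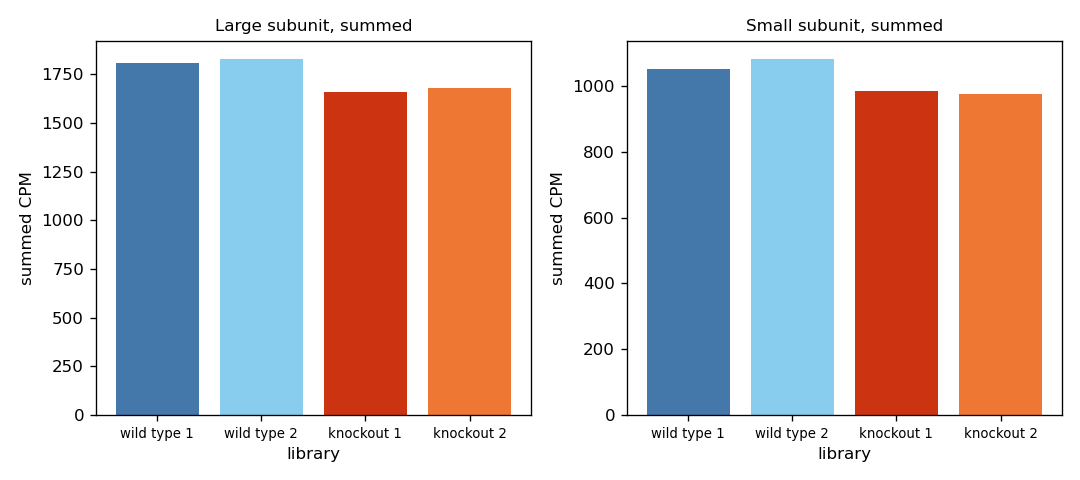
Summed CPM of the 48 large subunit genes (left) and the 29 small subunit genes (right) in each of the 4 libraries, with bars from 0. In both panels the knockout bars are lower than the wild-type bars, by 8.21% and 8.18% of the wild-type mean.

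The median absolute log2 difference over the 77 genes was 0.137 between the genotype means, against 0.075 between the wild-type libraries and 0.071 between the knockout libraries. With its sign, the median log2 difference was -0.02 between wild type 1 and wild type 2 and -0.01 between knockout 1 and knockout 2. Wild type 2 was the highest library for 43 genes and wild type 1 for 23, while knockout 1 was the lowest for 38 and knockout 2 for 30. Both knockout libraries lay below both wild-type libraries in 54 of the 77 genes and above them in 2. Among all tested genes such separation occurred in 63.5%, with the knockout lower in 31.9% and higher in 31.6%.

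The large and small subunits gave similar counts. Of 48 Mrpl genes 10 fell and 1 rose, 43 were lower, and the median log2 fold change was -0.12. Of 29 Mrps genes 7 fell and none rose (0 in edgeR, where 15 had an unadjusted p below 0.05), 25 were lower, and the median was -0.15. A symbol does not always give the place: Mrps30 and Mrps18a sit in the large subunit of the solved mammalian ribosome, and Mrps36 is now known as a component of the oxoglutarate dehydrogenase complex. Assigned by place, 11 of 50 large subunit genes fell and 1 rose, and 6 of 26 small subunit genes fell and none rose. Mrps30 fell, from 49.7 and 48.6 to 43.7 and 44.6 CPM (log2 -0.15 ± 0.05, edgeR adjusted p = 0.0468). Mrps18a had a log2 fold change of -0.15 (adjusted p = 0.107) and Mrps36 one of -0.04 (adjusted p = 0.667). Of 46 genes whose protein takes the place of a bacterial one 9 fell and 1 rose (median -0.12). Of the other 31, counted with Mrps18a, Mrps18b and Mrps36, 8 fell (median -0.15).

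**Figure D3:**
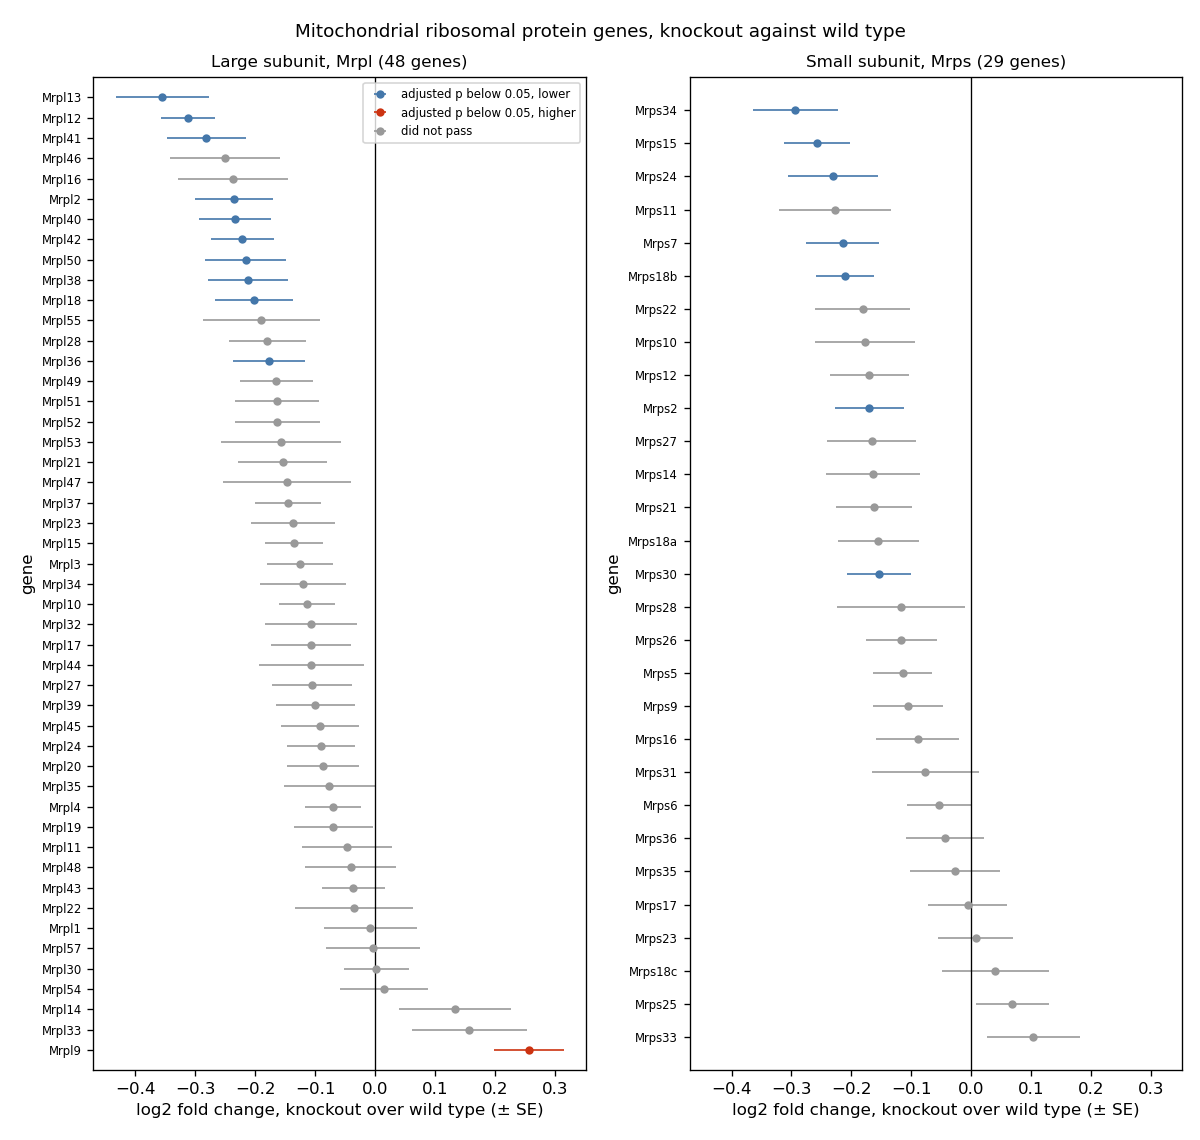
Log2 fold change of each gene, knockout over wild type, with its standard error, for the large subunit (left) and the small subunit (right). Blue points fell and the red point (Mrpl9) rose at an adjusted p below 0.05. Grey points did not pass, and 51 of these 59 lie below 0.

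Mrpl12 forms the flexible stalk that recruits translation factors to the large subunit. It lies at chr11:120484637-120488754 in the RefSeq annotation of GRCm38.p6. Its level was 85.5 and 87.3 CPM in wild type and 68.8 and 70.5 CPM in the knockout. The knockout libraries were lower by several times the gap between replicates, and the log2 fold change was -0.31 ± 0.05 (edgeR adjusted p = 0.000147). Its stalk partners Mrpl10 and Mrpl11 had -0.11 and -0.05 and did not pass.

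Mrpl13, a core protein that binds the large ribosomal RNA (chr15:55534095-55557312), had the largest fold change of the 77 genes with all 4 libraries. It was at 44.5 and 43.6 CPM in wild type and at 37.9 and 30.9 CPM in the knockout (log2 -0.36 ± 0.08, adjusted p = 0.00343). The knockout libraries differed from each other here, and without knockout replicate 2 the log2 fold change was -0.22 (adjusted p = 0.0807). Its exons overlap those of Mtbp on the opposite strand, which also fell (log2 -0.18, adjusted p = 0.0112). The strand setting of the counting is not given in the sources used here, so reads from the overlap cannot be told apart.

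Of the 6 genes assigned to the central protuberance, a part of the large subunit that touches the small one, all 6 were lower and 3 fell. Mrpl40 was at 42.9 and 40.7 CPM in wild type and at 35.9 and 35.2 CPM in the knockout (log2 -0.23 ± 0.06, adjusted p = 0.00934). Mrpl38 had a log2 fold change of -0.21 (adjusted p = 0.0272) and Mrpl18 one of -0.20 (adjusted p = 0.0322). These values rested on single libraries: they were -0.11 and -0.10 without knockout replicate 1, and -0.32 and -0.31 without knockout replicate 2. Mrpl46 had -0.25 (adjusted p = 0.0565) and did not pass. At 19.3, 18.8, 14.9 and 17.2 CPM it was among the lower genes, with a standard error of 0.09.

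Around the peptidyl transferase centre, where peptide bonds form, Mrpl2 went from 36.0 and 37.96 to 32.2 and 30.6 CPM (log2 -0.24 ± 0.06, adjusted p = 0.0137). Its neighbours Mrpl3 and Mrpl16 had -0.13 and -0.24 without passing. All 3 had both knockout libraries below both wild-type ones, as had 54 of the 77 genes and 31.9% of all tested genes. The 7 genes at the exit tunnel, through which the new chain leaves, were all lower, with a median of -0.11, and none passed (0 in edgeR, and 0 at an unadjusted p below 0.05). Mitochondria-specific proteins on the large subunit surface included Mrpl41, at 33.5 and 32.6 CPM in wild type and 27.5 and 26.9 CPM in the knockout (log2 -0.28 ± 0.07, adjusted p = 0.00567). Mrpl42, also specific to mitochondria, was at 52.5 and 53.9 against 45.6 and 45.6 CPM (log2 -0.22 ± 0.05, adjusted p = 0.00585). In both genes the groups were far apart relative to the replicates. Mrpl50 had -0.22 (adjusted p = 0.0277), and the small protein Mrpl36 -0.18 (adjusted p = 0.0417). Exons of Mrpl36 overlap those of Ndufs6 on the opposite strand, though 0% of its 31-base words occur in other genes.

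In the small subunit Mrps15, which binds the small ribosomal RNA (chr4:126046928-126055536), was at 47.8 and 48.7 CPM in wild type and at 39.9 and 40.9 CPM in the knockout. The replicates of each genotype nearly coincided and the log2 fold change was -0.26 ± 0.06 (adjusted p = 0.00308). Mrps34, a mitochondria-specific protein needed for small subunit stability, was at 34.8 and 37.8 against 28.2 and 30.96 CPM (log2 -0.29 ± 0.07, adjusted p = 0.00642). Its exons overlap those of Mapk8ip3 and Nme3, and 73.8% of the 31-base words of its transcripts also occur in transcripts of other genes, so its own value is uncertain. Mrps7, in the head of the subunit, went from 49.0 and 54.0 to 43.3 and 45.4 CPM (log2 -0.21, adjusted p = 0.0159, and -0.14 without wild type replicate 2). It was the gene that fell among 7 assigned to the head. Exons of Mrps7 overlap those of Gga3 and Mif4gd on the opposite strand, and 10.63% of its 31-base words occur in other genes. Of 3 at the decoding centre and messenger entry, Mrps24 had -0.23 (adjusted p = 0.0332). The exons of Mrps24 overlap those of Urgcp on the same strand, and its counts were fractional. Of its 31-base words 16.27% also occur in other genes, so its value is uncertain too. Of 4 genes on the platform none passed (0 in edgeR, where 2 had an unadjusted p below 0.05). Mrps2 had -0.17 (adjusted p = 0.0400, and -0.11 without knockout replicate 2).

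The 3 paralogues of bacterial S18 differed in their values. Mrps18b was at 68.7 and 71.6 CPM in wild type and at 60.1 and 61.1 CPM in the knockout (log2 -0.21 ± 0.05, adjusted p = 0.00501). Mrps18a, which sits in the large subunit, was at 34.7, 38.6, 32.5 and 33.3 CPM. Mrps18c, the form that takes the bacterial position, was at 15.04, 15.5, 16.1 and 15.3 CPM, with overlapping groups (log2 0.04, adjusted p = 0.784). Differences between the paralogues in fold change were not tested.

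Mrpl9 rose. This large subunit protein with a bacterial counterpart (chr3:94443154-94448708) was at 39.4 and 38.7 CPM in wild type and at 45.4 and 47.9 CPM in the knockout (log2 0.26 ± 0.06, edgeR adjusted p = 0.00402). Both knockout libraries were above both wild-type ones, as in 31.6% of all tested genes, and the opposite of 54 other genes of the group. The adjusted p was 0.0745 without knockout replicate 2. Its exons overlap those of Oaz3 on the opposite strand, which had 8, 4, 7 and 19 counts, and its counts were fractional. Of the other genes above 0, Mrpl33 had 0.16 (adjusted p = 0.25), Mrpl14 had 0.13 (adjusted p = 0.317) and Mrps33 had 0.10 (adjusted p = 0.354).

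**Figure D4:**
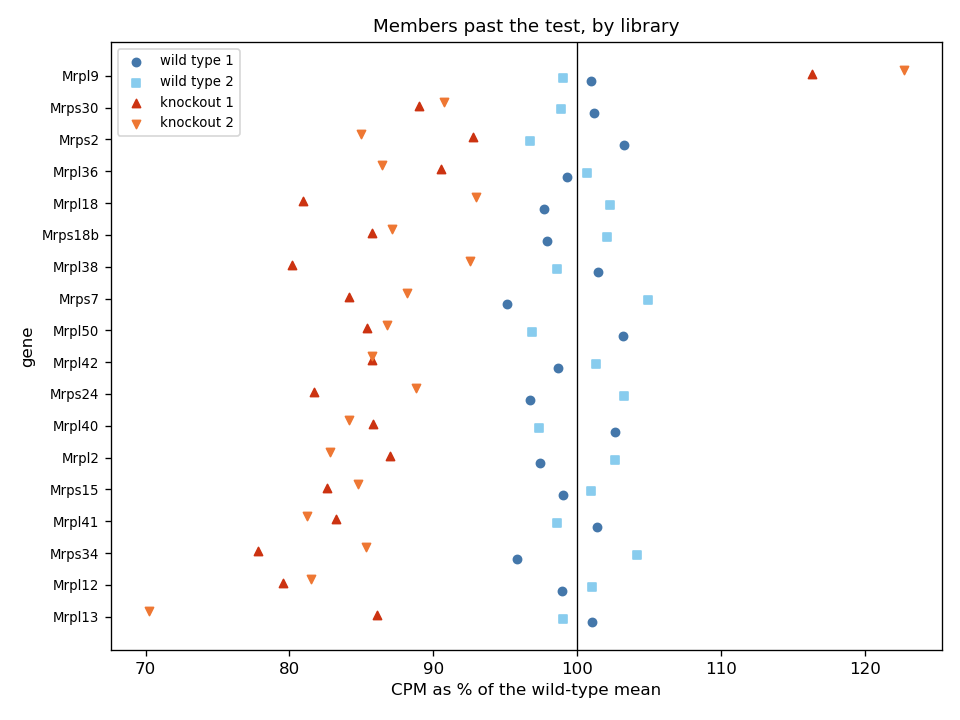
CPM of the 18 genes that passed the test, as a percentage of the wild-type mean of the gene, with a point for each of the 4 libraries. For 17 genes both knockout points lie to the left of both wild-type points, and for Mrpl9 to the right.

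The falls were small in size. Standard errors ran from 0.05 to 0.11 on the log2 scale, and 4 of the 77 genes differed by more than 1.2-fold. Just outside the threshold were Mrpl28 (-0.18, adjusted p = 0.0503) and Mrpl15 (-0.14, adjusted p = 0.0517). The 59 genes that did not pass had a median log2 fold change of -0.11, from -0.25 to 0.16. Of them 37 had both knockout libraries below both wild-type ones, a pattern found in 31.9% of all tested genes. Of the 18 calls, those of Mrpl12 and Mrps15 were kept whichever library was left out. Of the 17 falls, 10 were kept without wild type replicate 1, 7 without wild type replicate 2, 4 without knockout replicate 1 and 5 without knockout replicate 2. DESeq2 kept 2 of them, Mrpl12 and Mrpl13. Knockout replicate 2 was needed for the calls of Mrpl13 (adjusted p = 0.0807 without it), Mrpl9 (0.0745) and Mrpl41 (0.0747). Mrps18b lost its call when wild type replicate 2 was left out (0.0636), and likewise for knockout replicate 1 (0.0642) and for knockout replicate 2 (0.0554). Mrpl42 lost it with the same 3 (0.0554, 0.0544 and 0.0634). Mrps34 lost it without wild type replicate 2 (0.0754) or knockout replicate 1 (0.113). For the other 10 genes that fell, the highest adjusted p with 1 library left out lay between 0.0979 (Mrpl40) and 0.317 (Mrps2).

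Reads can be shared between genes whose exons overlap. The 53 genes whose exons overlap no other listed gene held 11 falls and no rise, with 47 lower and a median of -0.12. The 52 genes whose counts were whole numbers (within 0.005) in every library held 12 falls and no rise. Fold change had little relation to level or transcript length over the 77 genes (Spearman's rho -0.17 with mean wild-type CPM and 0.02 with length).

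Falls were found with and without the promoter motifs. Of 25 genes with a GABP/ETS match 2 fell, and of 43 without one 12 fell and 1 rose. Of 8 with a YY1 match 3 fell and all 8 were lower, with a median of -0.17, against -0.12 for the 60 without one. Of 7 with an NRF1 match, 1 fell (Mrps18b) and 1 rose (Mrpl9). Of the 23 genes with a divergent neighbour by the narrower definition 8 fell, and of the other 54 genes 9 fell and 1 rose. By the wider definition 11 of 33 fell and 1 rose, and 6 of the other 44 fell. Mrpl46 and Mrps11, whose promoter is printed above, had close values, -0.25 (adjusted p = 0.0565) and -0.23 (adjusted p = 0.0849), and neither passed.

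The ribosome also holds proteins without an Mrp symbol. Of 6 tested, Ptcd3, a small subunit protein with RNA-binding repeats, fell from 88.6 and 89.4 to 79.2 and 82.0 CPM (log2 -0.14 ± 0.04, edgeR adjusted p = 0.0272), a call lost without any 1 of the 4 libraries (adjusted p up to 0.156). Dap3, a GTP-binding protein, had -0.08, the peptidyl-tRNA hydrolase Ict1 had -0.13, and Chchd1 had -0.10. Aurkaip1 had -0.06 and Gadd45gip1 had 0.05. These 5 did not pass, and the median of the 6 was -0.09. The share called was 16.7%, against 26.8% of all tested genes.

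Among 27 genes for assembly of the ribosome and modification of its RNA, 3 fell and 1 rose, with a median of -0.05. This share of 14.8% called was below the 26.8% of all tested genes. Noa1, a GTPase of small subunit assembly, fell from 53.2 and 53.5 to 41.1 and 44.1 CPM (log2 -0.33 ± 0.06, edgeR adjusted p = 0.000549). Rnmtl1, which methylates the large ribosomal RNA, fell from 10.7 and 10.3 to 7.46 and 6.27 CPM (log2 -0.61 ± 0.12, adjusted p = 0.0019). Fastkd2, which binds that RNA, had -0.40 (adjusted p = 0.00216). Mterf4, which brings a methyltransferase to the large subunit, rose by 0.30 on the log2 scale (adjusted p = 0.0337). The calls of Rnmtl1 without knockout replicate 2 (0.0552), of Fastkd2 without knockout replicate 1 (0.0556) and of Mterf4 without any 1 library (up to 0.192) were lost.

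Of 22 genes that charge mitochondrial transfer RNAs, 7 fell and none rose, with 20 lower and a median of -0.15. The share called was 31.8%, against 26.8% of all tested genes. Gars, which serves both the cytosol and mitochondria, had -0.20 (edgeR adjusted p = 0.00062), Lars2 had -0.41 and Mars2 had -0.32. Of 15 translation factors and insertion proteins 3 fell (20% called), with a median of -0.09. On the log2 scale Letm1 fell by 0.27, the elongation factor gene Tufm by 0.13 and its exchange factor Tsfm by 0.32. Of 25 genes for mitochondrial transcription and RNA handling 3 fell and 1 rose (16% called, median -0.08). Tbrg4, which stabilises mitochondrial messengers, fell by 0.26 on the log2 scale. On the same scale the mitochondrial RNA polymerase gene Polrmt fell by 0.21 and the RNase gene Elac2 by 0.15. The poly(A) polymerase gene Mtpap rose by 0.16 on it. Without each library in turn, the calls of Gars, Letm1 and Tbrg4 were kept. Those of Lars2 (adjusted p up to 0.0641), Mars2 (0.0977), Tsfm (0.158), Tufm (0.157), Polrmt (0.122), Elac2 (0.262) and Mtpap (0.265) were each lost without at least knockout replicate 1.

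Of 12 tested regulators of mitochondrial gene expression 6 fell and none rose, with a median of -0.15. The share called was 50%, against 26.8% of all tested genes. Pprc1, a coactivator that works with NRF1, fell from 242.7 and 238.7 to 189.4 and 189.1 CPM (log2 -0.35 ± 0.04, adjusted p = 9.435e-06). The stress-responsive factor Atf4 fell from 643 and 635 to 551 and 506 CPM (log2 -0.28 ± 0.04). Atf5, which serves the mitochondrial stress response, had -0.31, but 79.4 CPM in wild type 2 and 78.4 CPM in knockout 1 were about equal. The genes of the motif-binding factors had small falls on the log2 scale: Yy1 by 0.15, Nrf1 by 0.16 and Gabpb1 by 0.15. Myc was at 547, 539, 528 and 523 CPM (log2 -0.05, adjusted p = 0.338). Pprc1 and Atf4 kept their calls without each library in turn. Atf5 lost its call without wild type replicate 1 or knockout replicate 2 (log2 -0.17 each, adjusted p up to 0.368; -0.48 without knockout replicate 1), Yy1 without 3 of the libraries (up to 0.176), Nrf1 without 3 (up to 0.251) and Gabpb1 without any of the 4 (up to 0.176).

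Beside these lists, 85 genes for proteins of the cytosolic ribosome were evenly split, with 6 up, 6 down, 41 lower and a median of 0.00. Of 78 nuclear-encoded subunits of oxidative phosphorylation, whose partners the mitochondrial ribosome makes, 12 fell and 2 rose (median -0.06, 59 lower). That was 17.9% called, with 14.1% for the cytosolic ribosome, against 26.8% of all tested genes. Usmg5, an ATP synthase subunit, fell by 0.30 on the log2 scale. The differences between lists were not tested.

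**Figure D5:**
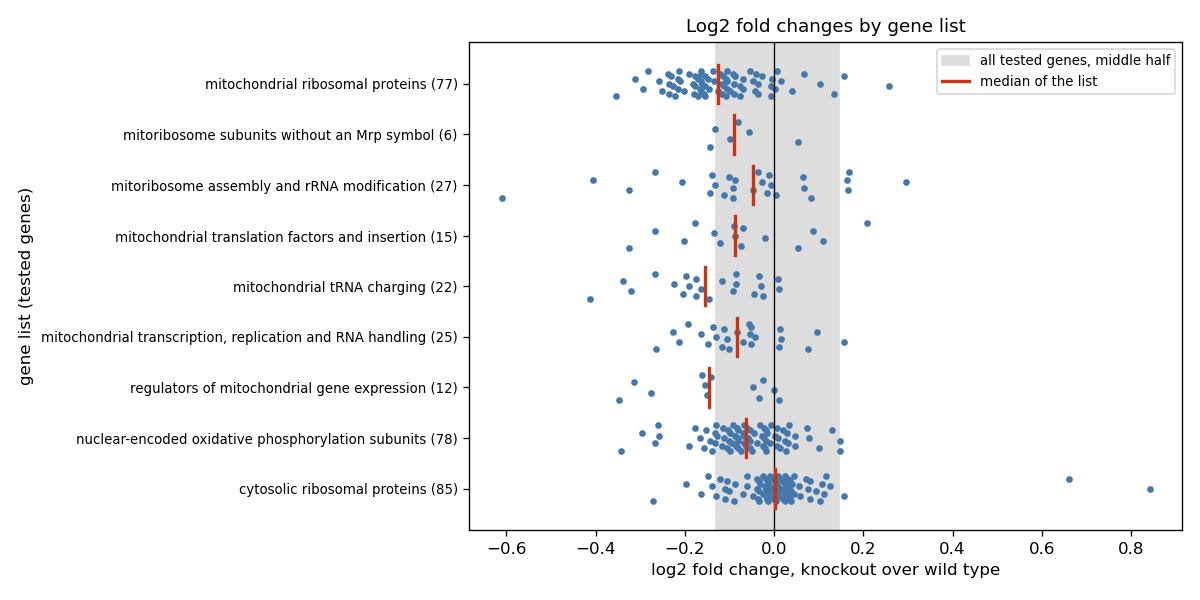
Log2 fold change, knockout over wild type, of each tested gene in 9 lists, with the median of each list in red and the range between the quartiles of all tested genes in grey (-0.13 to 0.15). The mitochondrial ribosomal proteins centre on -0.13 and the cytosolic ones on 0.00.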

How the data were processed

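RNA sequencing gave 4 libraries, 2 of each genotype. Per the file headers, each deposited table lists genes with expected count, FPKM and transcript length. Bowtie, RSEM and the build GRCm38 (mm10) are named in the submitters' processing notes, without versions. The authors' expected counts divide reads that match several genes by estimation, so close copies can trade reads. The deposited FPKM values, made by the authors, scale counts by length and depth, and were used to compare genes. Expected counts were rounded and fitted over all genes with edgeR 4.0.16 (R 4.3.3; TMM scaling, filterByExpr with a minimum count of 10, Benjamini-Hochberg adjustment, threshold 0.05, two-sided). CPM values use TMM-scaled totals. DESeq2 1.42.0 and limma 3.58.1 on log2(FPKM + 1) or log2(FPKM + 0.1) were alternatives. The fits were tested on simulated data.

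The smallest count of these genes in a library was 192. None of the 6 pairs of libraries was a duplicate (chi-square per degree of freedom 2.15 or more). Coordinates and promoters came from RefSeq (GRCm38.p6) and exon overlaps from GENCODE M21 (GRCm38). The genes and lists were chosen with earlier results of these data known. Named are all genes past the threshold, the 3 highest and lowest per subunit, the S18 group, the genes whose symbol differs from their place, the other ribosome proteins, and up to 4 genes of each further list by smallest p. Mrpl3, Mrpl10, Mrpl11, Mrpl14, Mrpl15, Mrpl16, Mrpl28, Mrpl33, Mrpl46, Mrps11, Mrps33, Mtbp, Oaz3, Nrf1, Gabpb1 and Myc were added after their values were seen.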

Additional observations from a re-analysis of the deposited data

How the results depend on the processing

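The median log2 fold change of the 77 genes stayed below 0 under all 14 alternatives to edgeR with TMM scaling and filtering, between -0.137 and -0.111 with 1 library left out (-0.111 without wild type replicate 2), and 64 to 69 genes were lower. The count of falls depended far more on the settings: 6 with no filter on low counts, 2 in DESeq2 and 3 with unfiltered log2(FPKM + 1), in place of 17, and 4 to 12 with 1 library left out. By subunit these were 4, 2 and 2 for the large (3 to 6 with 1 library left out) and 2, 0 and 1 for the small (1 to 7). No gene rose in DESeq2 or with unfiltered log2(FPKM + 1), with 0 in all and 0 in the large subunit, and 0 to 1 rose with 1 library left out. Over all genes, in place of 1670 falls and 1728 rises, there were 877 and 1051 with no filter, 730 and 839 in DESeq2, 213 and 238 with unfiltered log2(FPKM + 1), 1151 rises with log2(FPKM + 0.1), and 629 to 1112 falls and 812 to 1243 rises with 1 library left out. The share called over all tested genes was 11.1% with no filter, 12.7% in DESeq2 and 2.58% with unfiltered log2(FPKM + 1), in place of 26.8%. The cause of these changes in the counts was not tested. Subunits assigned by place, summed FPKM and totals without TMM left the summed results within the spread of the replicates.

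Among the genes named in the text, 6 changed sign when 1 library was left out, and none of these had passed the test. Their values then ran from -0.184 to 0.039 for Mrpl35 (above 0 without wild type replicate 2), from -0.121 to 0.013 for Mrps6 (without knockout replicate 2), from -0.030 to 0.282 for Mrpl14 (below 0 without knockout replicate 1), from -0.108 to 0.014 for Mrpl11 (not below 0 without wild type replicate 1 or knockout replicate 1), from -0.0041 to 0.111 for Gadd45gip1 (without knockout replicate 2) and from -0.112 to 0.0026 for Aurkaip1 (without wild type replicate 2). With the replicate number as a block, 22 of the 77 genes fell and 1 rose. The share called over all tested genes was then 31.2%, in place of 26.8%. The labels do not say that a number pairs libraries, and deviations of libraries with the same number had a correlation of 0.01 over all tested genes and 0.14 over the 77 genes. No alternative with added counts of pseudogene copies was run, because none with such a symbol is listed.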
